A study of Solanum tuberosum with 4 samples.

Results

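In leaves of the potato cultivar Désirée, RNA of salt-watered and of water-treated plants was compared on 4 arrays. The strongest deposited ratios that were negative on every array came from 74 spotted cDNA clones. They are the clones with a value on all 4 arrays, every value below 0, and a mean of the 4 deposited log ratios at or below -1. Of 11507 clones on the array, 7099 had a value on all 4 arrays (complete clones), and 1417 of those were below 0 on every array. The 74 selected clones make up 1.04% of the complete clones and 5.22% of the all-negative ones. No other complete clone had a mean at or below -1, so the condition on single arrays took none away. The same rule on the positive side gave 18 clones, out of 1480 that were above 0 on every array. The ratios themselves chose the clones, so the size and sign of the mean ratio are given as a description and without a test.

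Plants multiplied in vitro and grown in pots for 2 months were watered with 75 mL of 150 mM NaCl, or with as much tap water as controls, and the first and second leaves were taken on day 3. Désirée is a red-skinned tuber cultivar, and both treatments used this 1 genotype. Each array carried 1 salt and 1 control RNA, with the salt RNA labelled by Cy3 on replicates 1 and 3 and by Cy5 on the other two. The labels call the 4 samples per treatment biological replicates and mention 2 sets of plants, without tying replicates to sets.

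Salt in the soil acts on a leaf in a first phase through lower water uptake and later through sodium and chloride that build up in the tissue. Leaves are known to respond by closing stomata through abscisic acid signalling, by making compatible solutes and antioxidant enzymes, and by lowering the expression of many genes of photosynthesis and growth. On a spotted cDNA array, each spot holds the insert of 1 cDNA clone, and clones of the same or closely related transcripts can be spotted more than once and share signal. Counts of clones are therefore not counts of genes.

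The 74 clones are given by ID, with no gene name, role or sequence, because the table of potato genes at hand lists none of these IDs. The leaf label could not be checked against marker genes for the same reason. The sources used here do not say whether salt or control RNA is the numerator of the ratio. With salt as the numerator a negative value means less transcript after salt, and with control as the numerator it means more; signs are kept as deposited. All ratios were read as log2 values, an assumption on which each fold value rests. A further assumption is that the deposited ratios had been turned to 1 direction. If they had not been, a response to salt would change sign between the dye orientations and cancel in the mean of the 4 arrays, and the mean ratio would hold the unequal uptake of the dyes by a clone.

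The mean ratio of the 74 clones lay between -2.19 and -1.001, with a median of -1.22, against a median of 0.022 for the other 7025 complete clones. Read as log2, the lowest mean is a 4.55-fold and the highest a 2.00-fold difference. A limma fit of all 9101 clones with at least 3 values called 74 of the 74 clones negative (adjusted p under 0.05, Benjamini-Hochberg), and 8.16% of all tested clones. The rule used the same contrast, so nothing is read from that count.

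**Figure D1:**
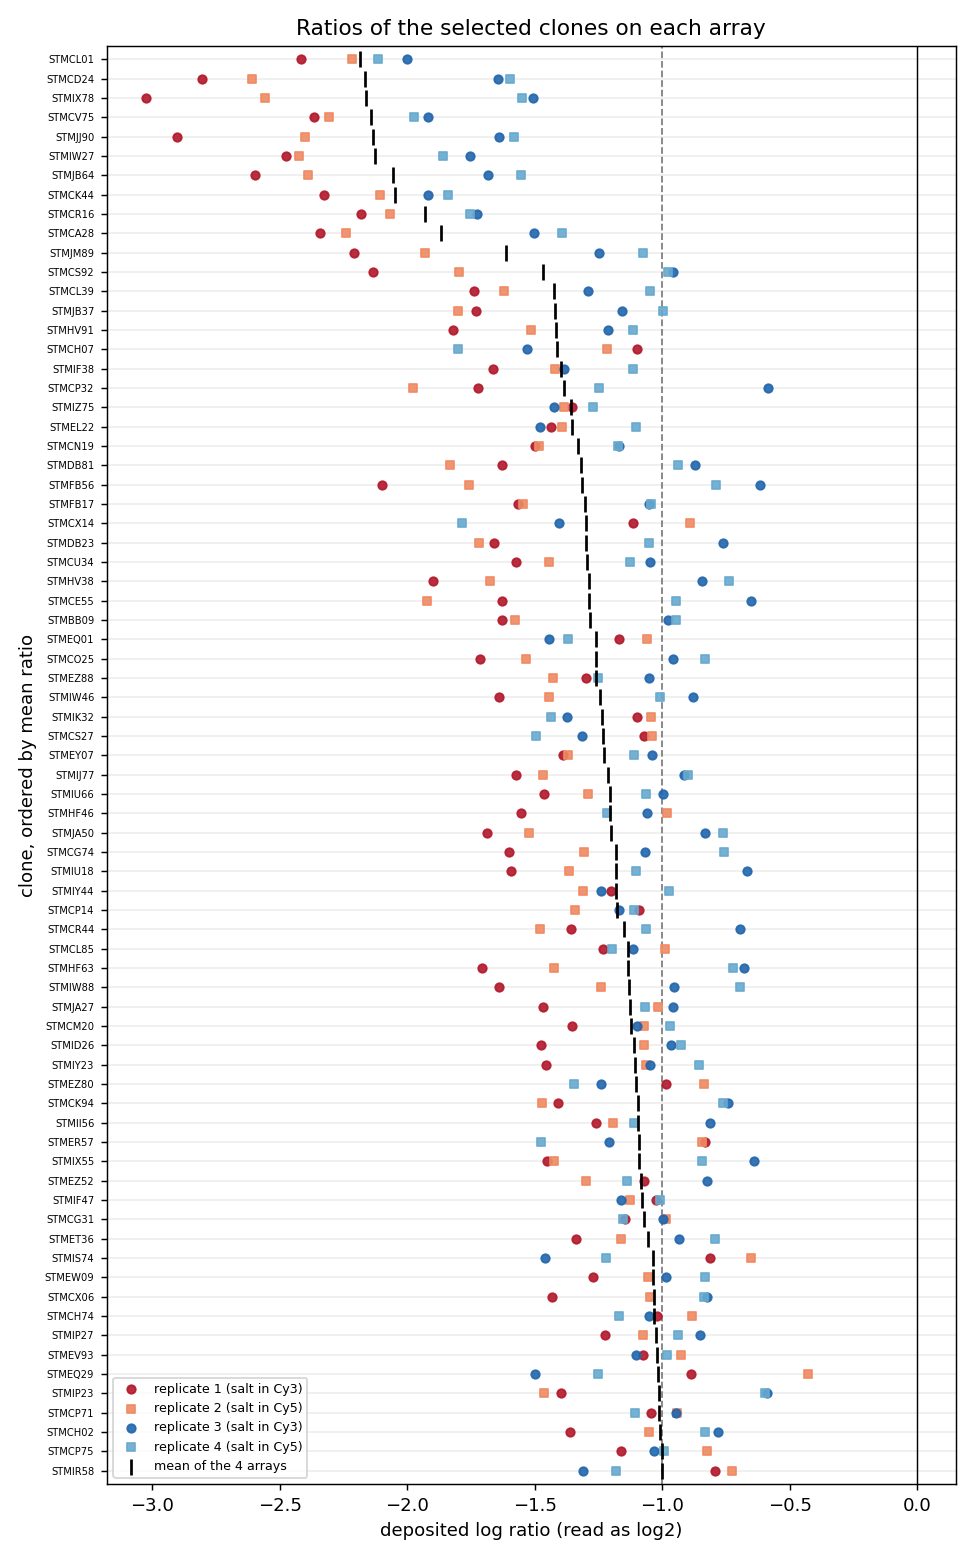
Deposited log ratio (x axis, read as log2) of each of the 74 selected clones (rows, ordered by mean) on the 4 arrays. Circles are arrays with salt in Cy3 and squares those with salt in Cy5, black ticks are the mean, and the dashed line is the limit of -1; the 10 clones at the top lie apart, and 57 of the 74 clones are lower on replicates 1 and 2 (red) than on replicates 3 and 4 (blue).

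The selection was uneven in strength, with 10 clones set apart from the other 64. Their means ran from -2.19 to -1.87, and the next clone, STMJM89, had a mean of -1.61. That step of 0.255 was the widest between neighbours in the ranking, and the second widest, of 0.148, came just after STMJM89. The break was noticed in the values and was not part of the rule. On every array, all 10 were among the 74 lowest complete clones, as were 6 of the other 64. The 10 are the lowest means of these same ratios, so their low ranks are a description and no support for the break. Counted from the lowest of the 7099 clones, the last of the 10 stood at rank 11 on replicate 1, 10 on replicate 2, 17 on replicate 3 and 23 on replicate 4.

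Within these 10, STMCL01 had the lowest mean, with ratios of -2.42, -2.22, -2.0 and -2.11 on replicates 1 to 4 (-2.19 ± 0.177, SD, n = 4). STMCV75 followed almost the same course, at -2.36, -2.31, -1.92 and -1.97 (-2.14 ± 0.227, SD, n = 4). STMCK44 had -2.33, -2.11, -1.92 and -1.84 on the same arrays (-2.05 ± 0.216, SD, n = 4). These clones, together with STMCR16, had a narrow spread between arrays, although replicates 1 and 2 were lower than replicates 3 and 4 in each. STMCR16 read -2.18, -2.07, -1.73 and -1.75 (-1.93 ± 0.227, SD, n = 4).

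The other 6 of the 10 differed more between the arrays. STMCD24 reached -2.81 on replicate 1 and -2.61 on replicate 2, against -1.64 on replicate 3 and -1.60 on replicate 4 (-2.16 ± 0.634, SD, n = 4). STMIX78 reached -3.03 on replicate 1 and -2.56 on replicate 2, against -1.51 and -1.55 on the other two (-2.16 ± 0.755, SD, n = 4). Its value on replicate 1 was the lowest of any complete clone on that array, and its SD was the largest of the 74. STMJJ90 had -2.91 on replicate 1 and -2.40 on replicate 2, against -1.64 and -1.58 on the other two (-2.13 ± 0.637, SD, n = 4). STMJB64 had -2.60 and -2.39, against -1.68 and -1.55 (-2.06 ± 0.515, SD, n = 4). In these clones the replicate 1 and 2 values and the replicate 3 and 4 values did not overlap. The same held for STMIW27, at -2.47 and -2.42 in the first pair, against -1.75 and -1.86 in the second (-2.13 ± 0.374, SD, n = 4). STMCA28 had -2.34 and -2.24, against -1.502 and -1.39 (-1.87 ± 0.491, SD, n = 4).

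The profiles of these 10 clones were compared with each other. The root mean square difference between the 4 ratios of a pair of them had a median of 0.271 and was at most 0.512. For the 17 clones that were lower on replicates 3 and 4 than on replicates 1 and 2, the median was 0.251. Each of the 10 had its closest match among the 74 inside the group, as did each of the other 64 among themselves, so no likeness particular to the 10 is read from these values. No source used here says whether they carry inserts of the same transcript. They came from several ID series, with 6 in STMC, 2 in STMI and 2 in STMJ.

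The remaining 64 clones lay between -1.61 and -1.001, with a median of -1.18. At the lower edge of the selection, the rule separated clones with nearly the same values. STMIR58, with the weakest mean of the 74, had ratios of -0.79, -0.72, -1.31 and -1.18 (mean -1.001). STMCP75 had -1.16, -0.83, -1.03 and -0.99, with a mean of -1.002. Just outside, STMJL59 read -1.52, -1.37, -0.61 and -0.51, with a mean of -0.99975. The next clone outside, STMJD43, read -1.02, -1.10, -1.06 and -0.80 (mean -0.99). The limit therefore cuts through a continuous range of means.

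Single arrays varied around the limit that the mean had to reach. Every array was at or below -1 for 27 of the 74 clones, 3 arrays were for 18, and 2 arrays were for 29. The weakest single value was the -0.43 of STMEQ29 on replicate 2, where its other ratios were -0.89 on replicate 1, -1.498 on replicate 3 and -1.25 on replicate 4. STMEQ29 was the 1 clone of the selection with a ratio above -0.5 on any array.

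The spread between arrays varied widely over the 74 clones. The SD over the 4 arrays ran from 0.064 to 0.755, with a median of 0.286, against a median of 0.194 in the other complete clones. In the 416 all-negative clones with a mean from above -1 up to -0.5, the median SD was 0.227. As a percent of the size of the mean, the order was the opposite. The median was 22.6% in the 74 clones, 33.4% in these 416 and 122.5% in the other complete clones. The 74 were chosen for means of large size, so that order is not read as tighter values. STMIZ75 had the tightest values, at -1.35, -1.38, -1.42 and -1.27 (-1.36 ± 0.064, SD, n = 4). STMIF47 was nearly as tight, at -1.02, -1.13, -1.16 and -1.01 (-1.08 ± 0.075, SD, n = 4). At the other end stood STMFB56, at -2.10 on replicate 1 and -1.76 on replicate 2, against -0.62 on replicate 3 and -0.79 on replicate 4 (-1.31 ± 0.724, SD, n = 4). A clone with a mean ratio like that of STMIZ75 thus had an SD over 10 times as large.

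The ratios were lower on replicates 1 and 2 than on replicates 3 and 4 in most of the selection. The median over the 74 clones was -1.47 on replicate 1, -1.39 on replicate 2, -1.05 on replicate 3 and -1.10 on replicate 4. A ratio at or below -1 was found for 69 of the clones on replicate 1, 61 on replicate 2, 43 on replicate 3 and 47 on replicate 4. Replicate 1 held the lowest of the 4 values for 45 of the 74 clones, against 2011 of all 7099 complete clones. The arrays themselves were centred alike, with medians over all their clones between -0.008 and 0.042.

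Expressed per clone, the mean of replicates 1 and 2 minus the mean of replicates 3 and 4 had a median of -0.36, with a range from -1.26 to 0.72. It was negative in 57 clones (77.0%) and positive in 17, and it was above 0.5 in size in 36. A size above 0.5 was found in 767 of all 7099 complete clones. Among the other complete clones the difference was negative in 49.4%, with a median of 0.0035. In the 416 all-negative clones with a mean from above -1 up to -0.5, it was negative in 65.1%, with a median of -0.1675. Its size was above 0.5 in 94 of these 416, so the order was not confined to the selection. No test is given, because the labels do not define these pairs of arrays, which earlier results of the same data had shown to deviate together. In 49 of the 74 clones, both ratios of replicates 1 and 2 were below both ratios of replicates 3 and 4, against 24.5% of all complete clones. The reverse was found in 11 clones, against 22.7% of all. Of the 416 weaker all-negative clones, 205 had the first order without overlap and 85 the reverse.

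The 17 clones with the opposite order had a median mean ratio of -1.08, against -1.26 for the 57 clones with the common order. Their median ratio was -1.07 on replicate 1 and -0.92 on replicate 2, against -1.24 on replicate 3 and -1.22 on replicate 4. The strongest of them had a mean of -1.41, so none belonged to the 10 lowest clones. STMEQ29, named above, had the largest difference in this direction, 0.72. STMIS74 came next, with ratios of -0.81 on replicate 1 and -0.65 on replicate 2, against -1.46 on replicate 3 and -1.22 on replicate 4. STMIX78 and STMFB56, with differences of -1.26 and -1.23, were the extremes of the common order. Of the 17 clones, 8 belonged to the STMC series, 5 to STME and 4 to STMI.

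Over the 74 clones, ratios of replicates 1 and 2 correlated with Pearson's r = 0.925 and those of replicates 3 and 4 with r = 0.833. Across these pairs, r lay between 0.329 and 0.372. Spearman's rho was 0.881 for replicates 1 and 2 and 0.757 for replicates 3 and 4, against 0.0041 to 0.0893 across the pairs. Over all 7099 complete clones, r was 0.704 and 0.718 within these pairs and between 0.422 and 0.550 across them, so the pairing was not confined to the selection. Of those values across pairs, arrays with the same dye orientation had 0.550 and 0.540, and arrays with opposite orientations had 0.424 and 0.422. The clones share the 4 arrays and were cut off at a common mean, which can change these correlations. The size of that effect was not tested, and the values carry no p. The 18 strongest positive clones also had lower ratios on replicates 1 and 2 than on replicates 3 and 4, with medians of 0.63 and 0.91 against 1.64 and 1.81. In that set the smaller values in size were therefore on replicates 1 and 2, whereas in the negative set the larger ones were. This contrast between the sets was not tested.

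**Figure D2:**
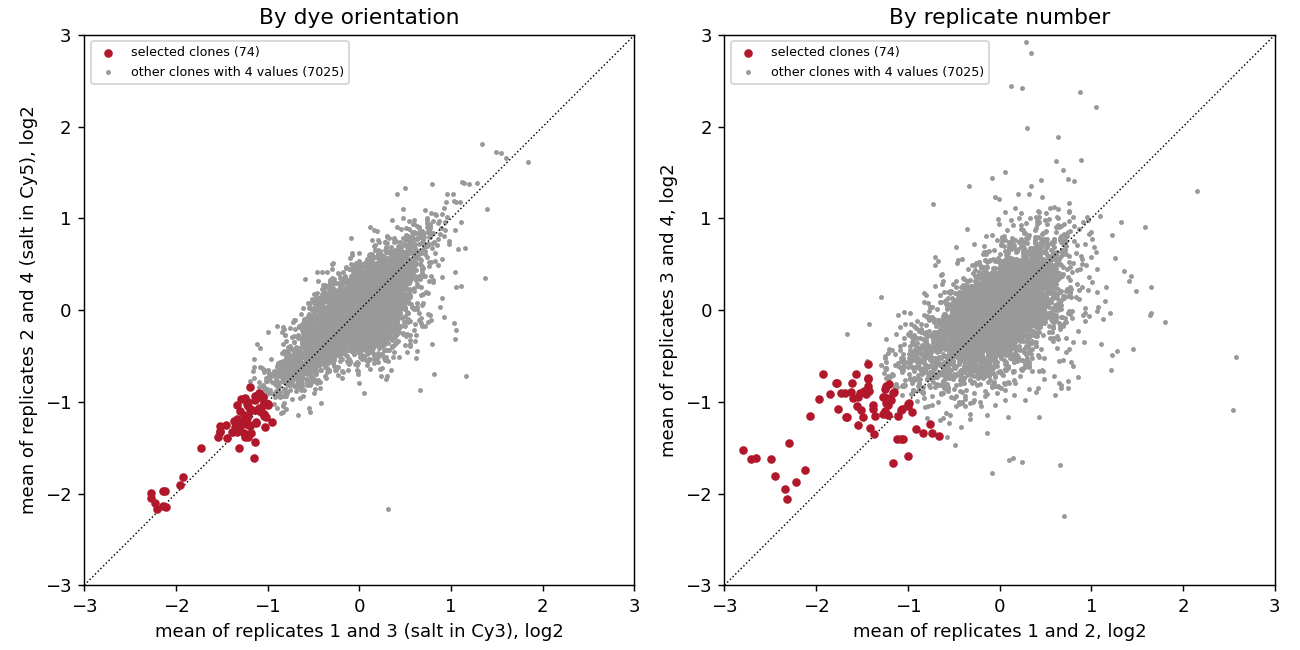
Mean log2 ratio per clone on one pair of arrays against the other pair, for the 74 selected clones (red) and the other 7025 complete clones (grey). Selected clones lie close to the dotted line of equality when arrays are joined by dye orientation (left), and above that line for 57 of 74 when replicates 1 and 2 are set against 3 and 4 (right); the straight edge of the red points is the limit on the mean.

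Dye orientation, which the labels do define, gave similar ratios in the 74 clones. Arrays with salt in Cy3 had a median of -1.23 over the clones, and arrays with salt in Cy5 had -1.22. Per clone, the Cy3 mean minus the Cy5 mean ran from -0.35 to 0.46, with a median of -0.06, and its size stayed under 0.5 in all 74. The size of this difference had a median of 0.119, against 0.156 in the other complete clones, of which 377 exceeded 0.5. It was negative in 53 of the selected clones (71.6%), compared with 53.1% of the others. The share was 62.5% in the 416 all-negative clones with a mean from above -1 up to -0.5, and 88.9% in the 18 positive clones. Both orientations had a mean at or below -1 in 59 of the 74 clones, and in 59 of all complete clones. Any clone that meets this also has a mean at or below -1 over the 4 arrays, so the count reflects the choice. In 64 clones (86.5%), replicates 1 and 2 differed from replicates 3 and 4 by more than the orientations differed. That was found in 54.6% of the other complete clones, 74.5% of the 416 weaker all-negative clones and 94.4% of the 18 positive clones.

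The difference between orientations does not enter the mean that chose the clones, and it was tested with limma over all 7099 complete clones. After Benjamini-Hochberg adjustment, limma called 0 of the 74 clones at 0.05 and 0% of all complete clones. At an unadjusted limma p under 0.05 it gave 0 of the 74 clones, against 5.93% of all. The lowest p among the 74 was that of STMEZ52, whose orientations differed by 0.27 (limma adjusted p = 0.858). This fit leaves the deviation of replicates 1 and 2 from 3 and 4 in the residual spread, which was large in the selected clones. With that deviation as a further term, limma called 0 of the 74 clones at an adjusted p under 0.05, against 5.79% of all complete clones. At an unadjusted p under 0.05 that fit gave 3 of the 74, against 17.7% of all. A missed threshold with 2 arrays per orientation does not show that the orientations were equal.

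The 3 clones were STMCP32, STMEQ29 and STMIW88. STMCP32 had ratios of -1.72 and -0.58 with salt in Cy3, against -1.98 and -1.25 with salt in Cy5, a difference of 0.46 (limma with the further term, adjusted p = 0.0701). STMIW88 had -1.64 and -0.95 with salt in Cy3, against -1.24 and -0.69 with salt in Cy5, a difference of -0.33 (limma with the further term, adjusted p = 0.265). For STMEQ29 the difference was -0.35 (limma with the further term, adjusted p = 0.213). STMCE55, with the second largest positive difference, had -1.63 and -0.65 with salt in Cy3, against -1.92 and -0.94 with salt in Cy5. In each of these clones the ratios of the 2 orientations overlapped, and the values of replicates 1 and 2 differed from those of 3 and 4 by more than the orientations did.

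The ratios of a chosen set can also be read on arrays that took no part in the choice. Where 1 array or 1 dye orientation was left out, however, each array read had its correlated partner (replicate 1 with 2, or 3 with 4) among the arrays that chose, so these readings are not independent of the choice. Choices on replicates 1 and 2 or on 3 and 4 keep the partners apart. When the rule was applied to replicates 1, 2 and 3, it chose 90 complete clones, and replicate 4 was below 0 for 90 of the 90, against 49.3% of all complete clones. The median of these clones was -0.97 on replicate 4 and -1.19 on the arrays that chose them, and 41 (45.6%) were at or below -1 on replicate 4, against 1.37% of all complete clones. With replicate 3 left out, 88 of 88 chosen clones were below 0 there, against 48.0% of all, and 43.2% were at or below -1, against 1.45% of all. With replicate 2 left out it was 77 of 77 against 50.0%, and with replicate 1 left out 64 of 64 against 46.0%. On replicate 2, 74.0% of the clones chosen without it were at or below -1, against 1.72% of all, with a median of -1.31. On replicate 1 the share was 85.9%, against 2.31% of all, with a median of -1.53. The left-out array was negative for every clone chosen on the other 3. The median was closer to 0 than on the choosing arrays for replicates 3 and 4 and further from 0 for replicates 1 and 2. Most of the chosen clones were among the 74: 60 of 64, 70 of 77, 69 of 88 and 68 of 90 without replicates 1 to 4. The signs are therefore a description and not a replication.

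Choosing on 1 dye orientation and reading the other, with a partner on each side, gave similar sizes. The arrays with salt in Cy3 chose 102 clones, and on the arrays with salt in Cy5 all 102 were below 0 on both, against 34.3% of all complete clones. Their median was -1.08 with salt in Cy5 and -1.16 with salt in Cy3, and 57.8% had a mean at or below -1 with salt in Cy5, against 1.06% of all. In the other direction, 74 of 75 clones were below 0 on both arrays with salt in Cy3, against 30.8% of all, with medians of -1.22 on the arrays left out and -1.23 on those that chose. Of these 75 clones, 78.7% had a mean at or below -1 with salt in Cy3, against 1.44% of all. The exception, STMHH09, had a ratio of -3.94 on replicate 4 and of 0.25, -0.40 and 0.38 on replicates 1 to 3.

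Choosing on replicates 1 and 2 and reading replicates 3 and 4, which keeps the partners apart, gave a larger loss of size. The choice held 126 clones, and 123 (97.6%) were below 0 on both replicates 3 and 4, against 34.1% of all complete clones. Their median was -0.82 on replicates 3 and 4 and -1.23 on replicates 1 and 2, and 36 of them (28.6%) had a mean at or below -1 on the arrays left out, against 1.11% of all. Replicates 3 and 4 chose 78 clones, of which 68 (87.2%) were below 0 on both replicates 1 and 2, against 32.4% of all, and 46.2% had a mean at or below -1 there, against 1.77% of all. The widest departure was STMCQ55, at 2.41 on replicate 1 and 2.68 on replicate 2, against -0.61 on replicate 3 and -1.56 on replicate 4. The 74 clones had a mean at or below -1 on replicates 1 and 2 in 65 cases, on replicates 3 and 4 in 45, and on both pairs in 36. Over all complete clones the counts were 126, 79 and 36. All these counts are over clones, which are not independent replicates, and carry no p.

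**Figure D3:**
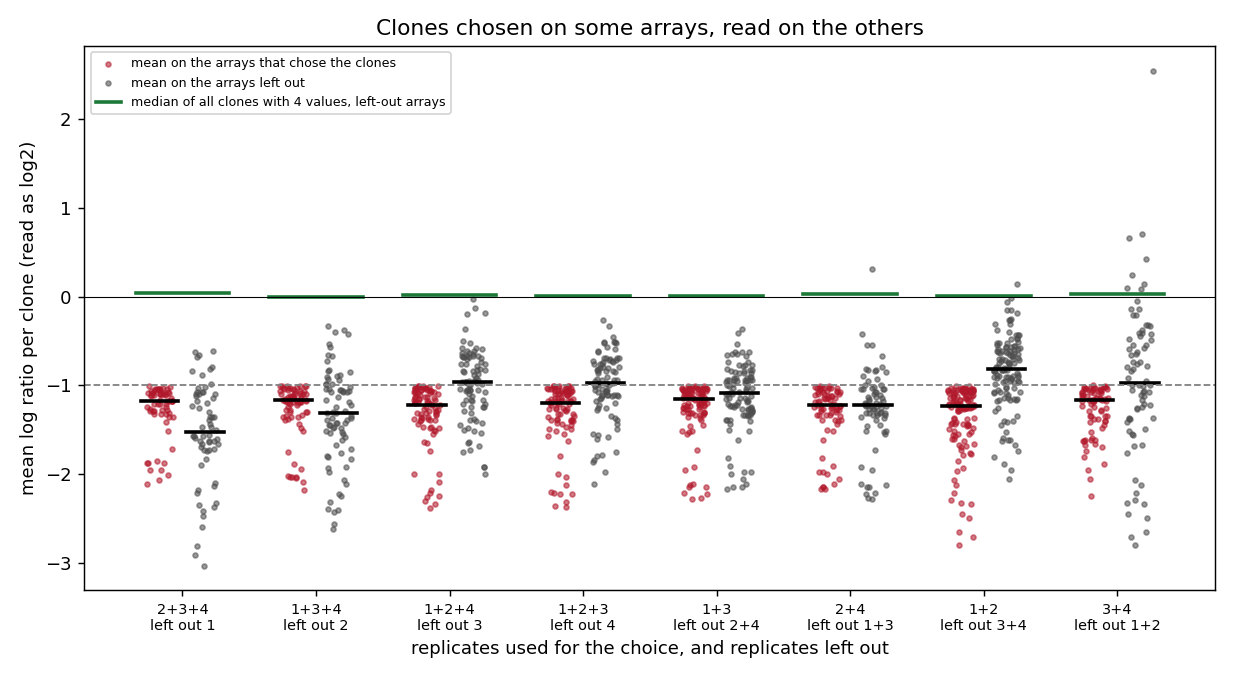
Mean log2 ratio per clone (points) for clones chosen by the rule on the replicates named on the x axis, with the arrays that chose them in red and the arrays left out in grey. Black bars are medians and green bars the median of all 7099 complete clones on the left-out arrays; the left-out medians run from -1.53 to -0.82, while those of all complete clones lie near 0.

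The selection overlapped in part with the lowest ratios of single arrays. Of the 74 lowest complete clones on each array, 52 (70.3%) belonged to the selection on replicate 1, 49 (66.2%) on replicate 2, 35 (47.3%) on replicate 3 and 40 (54.1%) on replicate 4. On replicates 3 and 4 the lowest clone of all was outside it. STMII46 had -2.13 on replicate 3 and -2.37 on replicate 4, but 0.70 and 0.71 on replicates 1 and 2. On replicate 4 the lowest clone was STMHH09, described above.

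Missing values kept 4 further clones out. STMFB14 had ratios of -2.02, -1.88 and -1.27 on replicates 1, 2 and 4, and STMCD12 had -1.49, -1.05 and -0.77 on replicates 2, 3 and 4. STMCL74 and STMDS87 had 2 values each, both negative with a mean at or below -1. None of these 4 is counted among the 74.

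The 74 clones were unevenly distributed over the ID series of the array, the series being the first 4 letters of the clone ID. The STMC series held 28 of them (37.8%) but 15.8% of the complete clones. STMI held 20, STME 11, STMJ 6, STMH 4, STMD 2, STMF 2 and STMB 1. As a share of the complete clones of the series, this was 2.49% in STMC, 1.88% in STMI, 1.08% in STME and 0.233% in STMD. The STMG series had 1307 complete clones, the most of any series, and 0 of the 74. The 18 positive clones included 5 from STMH, 4 from STMG and 2 from STMC. These series held 13.2%, 18.4% and 15.8% of the complete clones.

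**Figure D4:**
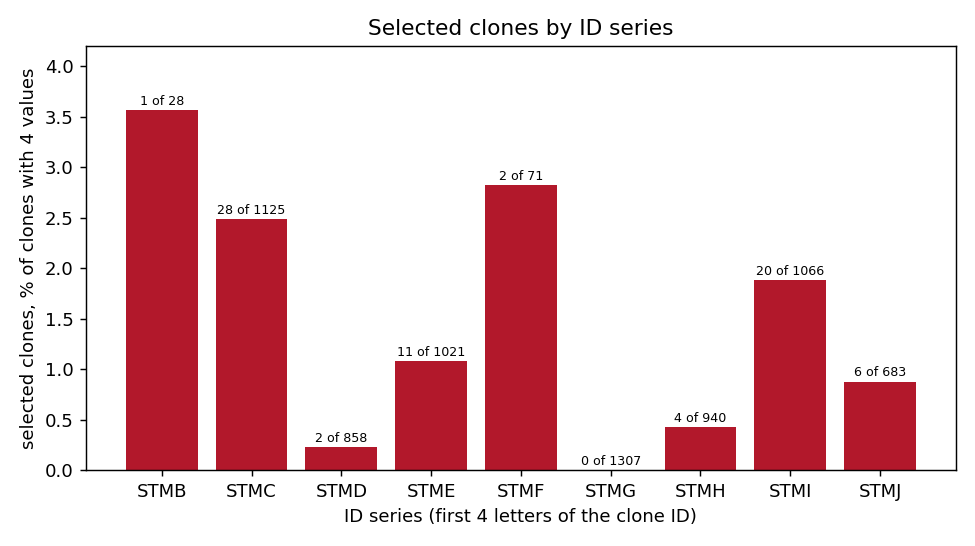
Share of complete clones (y axis, percent) that belong to the 74 selected clones in each ID series (x axis), with the counts above the bars. STMC and STMI together hold most of the selection, STMG holds 0 of 1307, and the high shares of STMB and STMF rest on 1 and 2 clones.

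Within series the clones were scattered. They fell into 46 of the 158 blocks of IDs that share 5 letters, with 24 blocks holding 1 clone, 17 holding 2, 4 holding 3 and 1 holding 4. The block with 4, STMCP, had 56 complete clones. No pair of the 74 had consecutive ID numbers within a block, and the ID numbers ran from 1 to 94. No source used here says what the ID series stand for, clones of a series are not independent, and no test was made.

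In the authors' deposited table of one-sample tests, the p-values of the 74 clones ran from 2.9e-05 for STMIZ75 to 0.0361 for STMFB56, with a median of 0.00306. The p-value was under 0.05 for all 74 clones and under 0.01 for 58 of them in the authors' deposited table. Among all 7099 complete clones, 1915 had a deposited one-sample p under 0.05 and 798 had one under 0.01. STMIZ75 and STMFB56 are the clones with the smallest SD and the second largest SD of the selection, and their mean ratios differed by less than 0.1. These p-values come from the same 4 ratios as the rule and add no independent evidence.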

How the data were processed

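RNA of salt-treated and control leaves was compared on 4 2-colour arrays, 1 group of 4 ratios per clone. The authors deposited 1 log ratio per clone and array, read here as log2, and a table of p-values that its header calls a one-sample t-test. The sources used here do not name the scanner, background correction, normalization, log base or numerator, and no spot intensities were used, so the number of arrays limits the precision. Ratios were used as deposited, and blanks were left missing. The members and lists were chosen with earlier results of these data known. Dye orientation was tested with limma 3.58.1 (R 4.3.3) on complete clones, Cy3 minus Cy5, with Benjamini-Hochberg adjustment over all clones fitted. The fit was also run on simulated data with independent noise on each array. Those data lack the correlation within replicates 1 and 2 and within 3 and 4, so nothing is read from that run. The mean ratio was fitted on clones with at least 3 values for the background share. Other values are counts, medians and SDs (Python 3.11.15, pandas 2.3.3). Clones named are the 10 lowest means, 2 at each extreme of SD, of dye difference and of pair difference, 2 on each side of the limit, and those with a ratio above -0.5; others are named where a count of 5 or fewer or a single extreme singled them out after their values were seen. No clone ID matched the gene table (SolTub_3.0), so gene lists had no members.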

Additional observations from a re-analysis of the deposited data

How the results depend on the processing

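The number of selected clones was 74, and 65 to 90 on 3 arrays, each replicate left out once, lowest without replicate 1, with 60 to 70 of the 74 kept. It stayed between 59 and 80 with values on at least 3 arrays, the median in place of the mean, no sign condition, centring, scaling, quantile normalization, or each dye orientation at or below -1. It was 11 at a limit of -1.5, 157 at -0.8, 27 with every value at or below -1, 36 with replicates 1 and 2 and replicates 3 and 4 each at or below -1, and 18 with every ratio turned. The median of the mean ratios, -1.22, was -2.13 for the 11 clones at the limit of -1.5, and 1.22 for the same 74 clones with every ratio turned; with each replicate left out it lay between -1.22 and -1.17. Turning also gave a median difference between replicates 1 and 2 and replicates 3 and 4 of 0.36, and named means from 0.9942 to 2.19. These changes follow from the limits and the sign. Dye orientation called 0 clones of the selection after adjustment in the alternatives run, most of which could hardly pass the threshold with so few arrays. At an unadjusted limma p under 0.05 the count was 0, but 1 without replicate 1, 2 without replicate 4 and 3 with replicates 1 and 2 against 3 and 4 as a further term. No paired analysis was possible because there is 1 group of arrays, each already a ratio of salt and control. The STMC series held 37.8% of the clones, 29.3% at the limit of -0.8 and 35.9% with arrays centred. Signal strength was not used here.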

Other observations

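Dixon's limit for 1 array far from the rest was applied to 22 named clones and 4 measures of the selection, and 0 of these 26 results passed it, where chance passes about 1 in 20. Among all 74 selected clones 0 passed it, against 264 of 7099 complete clones (3.72%). The 74 were chosen on these same 4 ratios, so nothing is read from the difference.

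Several selected clones had nearly the same 4 ratios although their IDs lie in different series or blocks. The closest were STMCX06, at -1.43, -1.05, -0.82 and -0.84 on replicates 1 to 4, and STMCH02, at -1.36, -1.05, -0.78 and -0.83, with a root mean square difference of 0.041. STMIK32, at -1.10, -1.04, -1.37 and -1.44, and STMCS27, at -1.07, -1.04, -1.32 and -1.49, differed by 0.043 and were both among the 17 clones that were lower on replicates 3 and 4. These pairs were picked out after their values were seen, as the closest 2 of all pairs of the selection.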
